A study of Mus musculus with 16 samples.

Results

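The treatment by genotype interaction in liver asks whether the antagonist NOX_6_18 shifted a transcript by a different amount in mice lacking Gpr132 in myeloid cells than in their floxed controls. It was taken from all 8 liver libraries of a 16-library mouse RNA-seq series, the other 8 being from white adipose tissue (WAT). Each of the 4 liver groups had 2 libraries: Lyz2_cre+/_GPR132fl/fl mice (called CKO) on NOX_6_18, CKO mice on vehicle, GPR132fl/fl mice (called fl/fl) on NOX_6_18, and fl/fl mice on vehicle. All 4 groups were C57BL/6 mice on a high-fat diet and carried the floxed Gpr132 allele. In CKO the Cre recombinase is driven by the Lyz2 promoter, which is active in macrophages and other myeloid cells, so hepatocytes and endothelial cells keep the gene. The contrast was the difference between NOX_6_18 and vehicle in CKO minus the same difference in fl/fl, on the log2 scale. A negative value therefore means that NOX_6_18 moved the transcript less upward, or more downward, in CKO than in fl/fl.

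GPR132 is a G protein-coupled receptor of the proton-sensing family that responds to oxidized fatty acids and lysophospholipids and is best known from macrophages and lymphocytes. In liver the resident macrophages are Kupffer cells, which lie in the sinusoids against a fenestrated endothelium and signal to hepatocytes through cytokines that induce acute phase proteins. A receptor-dependent drug response would appear in fl/fl and be reduced where the receptor is deleted, which gives an interaction other than 0. A response of equal size in both genotypes gives an interaction of 0. An interaction also arises where a single group stands apart from the rest, so a call alone does not show receptor dependence.

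The labels speak of RNA from isolated macrophages and also of tissue placed in liquid nitrogen. The libraries held transcripts of many cell types. Over the 6 libraries other than fl/fl vehicle, the summed level of 18 macrophage markers was 2214 to 2272 CPM (TMM-scaled counts relative to the library total), that of 10 Kupffer cell markers 2151 to 2207 CPM, that of 10 sinusoidal endothelial markers 9147 to 9322 CPM and that of 20 hepatocyte markers 5077 to 5267 CPM. No marker of those 4 lists was at 0 in any library. In bulk samples of this kind, fewer cells of a type and less RNA per cell cannot be told apart. Liver libraries held 45624957 to 60761705 counts, of which 43.0% to 44.9% came from mitochondrially encoded genes, and the scaling factors ran from 0.98 to 1.02. The labels do not state whether a group's 2 libraries were made from different animals. The p-values therefore measure only how far these libraries scatter, and that scatter may be technical.

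The 2 libraries of fl/fl mice on vehicle differed from the other 6 as a pair. On the first principal component, which held 25.0% of the variance, they lay at 58.6 and 77.3, against -26.0 to -19.8 in the CKO NOX_6_18, CKO vehicle and fl/fl NOX_6_18 libraries. Their marker sums differed too. Neutrophil markers summed to 28.4 and 29.2 CPM in fl/fl vehicle, with 123 to 132 CPM in the other 6, and erythroid markers to 7663 and 8081 CPM, with 4099 to 4509 CPM in the other 6. Kupffer cell, sinusoidal endothelial and hepatocyte sums were lower in fl/fl vehicle, at 1780 to 1813, 7293 to 7298 and 4030 to 4230 CPM. The macrophage sum of 2248 to 2253 CPM lay within the range of the other libraries, but its members were not all level. Of the 18, 2 were called higher and 2 lower on NOX_6_18 than on vehicle in fl/fl. That sum includes Lyz2, which was higher in fl/fl vehicle. Cholangiocyte markers, mostly the osteopontin gene Spp1, summed to 549 and 562 CPM there and to 358 to 381 CPM elsewhere. The part of these shifts in the results was not tested. Because fl/fl vehicle is 1 of the 4 groups of the contrast, the interaction cannot be computed without it; values from contrasts that leave it out are given beside the results.

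**Figure D1:**
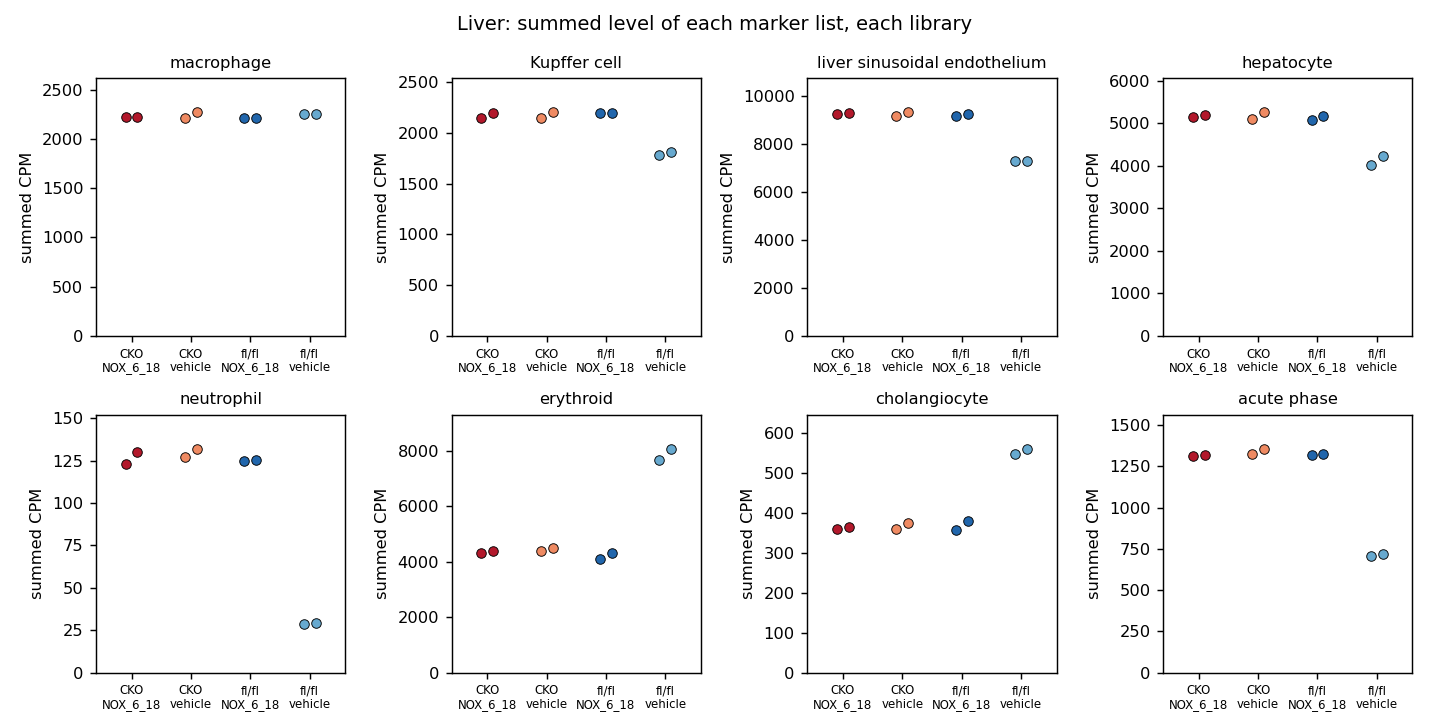
Summed level of the marker lists in each liver library (y axis, CPM, from 0) by group (x axis), with the lower and the higher of the 2 libraries of a group drawn left and right. The macrophage sum is level across the 4 groups, although single markers in it, such as Lyz2, were not. The fl/fl vehicle group lies below the others for neutrophil markers (28.4 and 29.2 CPM) and above them for erythroid markers (7663 and 8081 CPM).

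Gpr132 itself was a low transcript. It had 2.81 and 2.41 CPM in CKO on NOX_6_18, 1.86 and 1.46 CPM in CKO on vehicle, 2.13 and 1.64 CPM in fl/fl on NOX_6_18, and 4.26 and 4.04 CPM in fl/fl on vehicle. The fl/fl vehicle libraries were the highest, and the other 3 groups overlapped in part. On vehicle Gpr132 was lower in CKO than in fl/fl by an edgeR log2 fold change of -1.32 (adjusted p = 0.0162), whereas on NOX_6_18 CKO was not below fl/fl (0.47, adjusted p = 1). Which exon is removed is not given in the sources used here, so counts over the whole gene are a limited check of the deletion. The interaction of Gpr132 was 1.79 ± 0.34 (SE, edgeR adjusted p = 0.0344), and it missed the threshold when any 1 of the 8 libraries was left out (adjusted p up to 0.112). Of the 4 proton-sensing receptors listed, Gpr132 was the 1 called.

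Of 19515 genes fitted, 478 passed in the interaction (2.45%; edgeR quasi-likelihood test, Benjamini-Hochberg adjusted p under 0.05). The interaction was positive for 114 genes (0.584%) and negative for 364 (1.87%), and 208 of the 478 reached an absolute log2 value of 1. Leaving out 1 library at a time gave 288 to 344 calls, with the fewest without CKO NOX_6_18 replicate 1. Of the called genes 441 were protein-coding. The median interaction over all genes fitted was -0.00.

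In the called genes, the difference between NOX_6_18 and vehicle was seen in fl/fl and had little counterpart in CKO. In the 364 genes with a negative interaction, the median difference between NOX_6_18 and vehicle was -0.02 in CKO, with an interquartile range of -0.08 to 0.02, and 0.93 in fl/fl. In the 114 genes with a positive interaction it was 0.07 in CKO, with an interquartile range of -0.02 to 0.21, and -0.69 in fl/fl. Tested on its own, the difference between NOX_6_18 and vehicle passed for 7 genes in CKO (0.0359% of 19515) and for 1077 genes in fl/fl (5.52%). At an unadjusted p under 0.05 the numbers were 792 in CKO and 3622 in fl/fl. The interaction and the fl/fl difference share the fl/fl libraries, so these values describe the same libraries and do not add to each other. Split by genotype instead, the median of CKO minus fl/fl in the 364 genes was 0.91 on vehicle and -0.01 on NOX_6_18. In the 114 genes it was -0.70 on vehicle and 0.09 on NOX_6_18. Both splits belong to the same contrast, which cannot tell them apart.

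Both fl/fl vehicle libraries lay outside the range of the other 6 in 459 of the 478 called genes, as the lowest in 358 and the highest in 101. Over all genes fitted that held for 24.9%, as the lowest in 12.7% and the highest in 12.2%. Both CKO NOX_6_18 libraries lay outside the other 6 in 26 called genes, or 5.44% of called genes against 7.08% of genes fitted. For the CKO vehicle libraries it was 45 called genes (9.41% against 6.22%). For the fl/fl NOX_6_18 libraries it was 46 (9.62% against 6.41%). These sets overlap with the 459. In 19 called genes the fl/fl vehicle libraries were not both outside the range of the other 6. Setting aside fl/fl vehicle, a direct comparison of CKO with fl/fl on NOX_6_18 called 7 genes (0.0359%; 864 at an unadjusted p under 0.05), against 1131 genes for CKO and fl/fl on vehicle (5.8%).

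**Figure D2:**
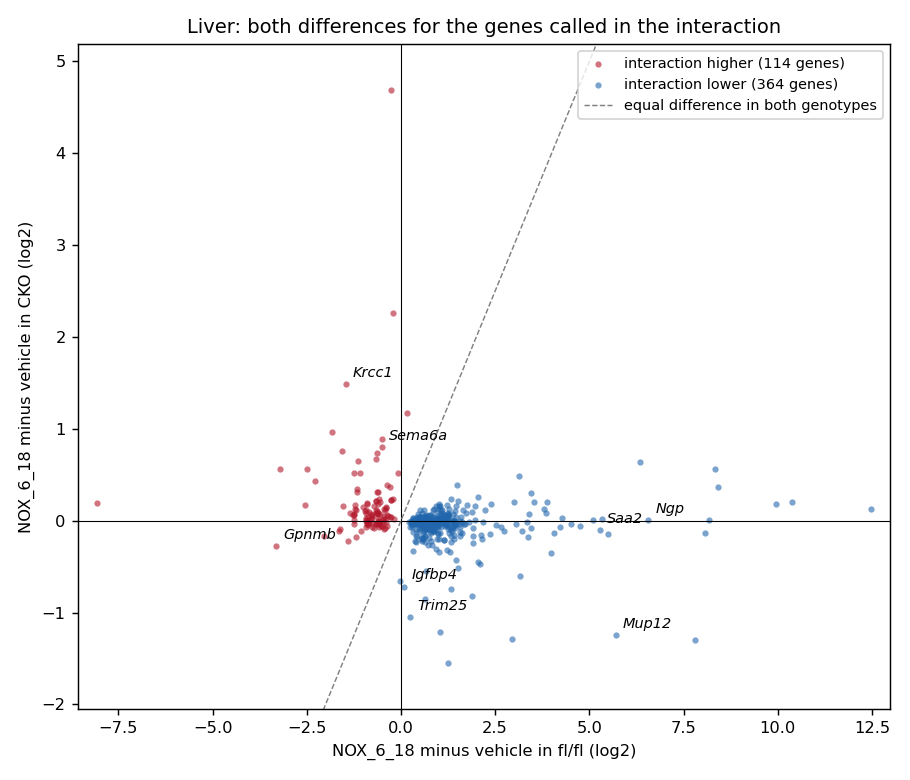
Log2 difference between NOX_6_18 and vehicle in CKO (y axis) against the same difference in fl/fl (x axis) for the 478 genes called in the liver interaction; the axes differ in scale, and the dashed line marks equal differences. Most genes lie along the horizontal line at 0 in CKO, while the 364 blue points have a median of 0.93 and the 114 red points a median of -0.69 in fl/fl.

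Transcripts of the proteins that hepatocytes secrete in an acute phase response made up one block of negative interactions. Of 24 acute phase genes measured, 14 had a negative and 1 a positive interaction, with a median of -1.03. When 1 library was left out, 10 to 13 were called negative and none positive. The members' median difference between NOX_6_18 and vehicle was -0.03 in CKO and 0.98 in fl/fl. Of the list, 4 genes (Fga, Fgb, Hp and Hpx) also stand in the hepatocyte list.

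Saa2 encodes serum amyloid A2, an acute phase apolipoprotein of high-density lipoprotein. It had 40.2 and 39.9 CPM in CKO on NOX_6_18, 42.5 and 43.6 CPM in CKO on vehicle, 38.8 and 43.0 CPM in fl/fl on NOX_6_18, and 1.11 and 0.97 CPM in fl/fl on vehicle. The first 3 groups lay between 38.8 and 43.6 CPM and fl/fl vehicle far below them. The interaction was -5.39 ± 0.14 (SE, edgeR adjusted p = 6.85e-07), made of -0.10 ± 0.08 in CKO and 5.28 ± 0.11 in fl/fl. Saa1 had an interaction of -4.20 ± 0.26 (edgeR adjusted p = 0.000128); Saa1 and Saa2 are close copies, so the split of reads between them is uncertain.

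Hp, the gene of the haemoglobin-binding protein haptoglobin, had 246 and 251 CPM in CKO on NOX_6_18, 259 and 250 CPM in CKO on vehicle, 248 and 246 CPM in fl/fl on NOX_6_18, and 92.1 and 93.3 CPM in fl/fl on vehicle. The fl/fl vehicle libraries were again the ones set apart, and the interaction was -1.45 ± 0.06 (SE, edgeR adjusted p = 2.32e-05). The haem-binding Hpx (-1.10 ± 0.07) and the fibrinogen chains Fgg (-1.15 ± 0.07), Fgb (-1.08 ± 0.08) and Fga (-0.95 ± 0.10) passed in the same direction, with edgeR adjusted p from 0.000151 to 0.00192. The Fgb call was lost with all 16 libraries in 1 fit. Cp, the ferroxidase ceruloplasmin, was the 1 member with a called positive interaction (0.44), and that call was lost when any 1 library was left out. Acute phase genes without a call included Saa3 (1.62), which is made by macrophages and adipocytes as well as liver, and the iron hormone gene Hamp (0.27).

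Promoter sequence is shown for genes of 4 lists in which more members had a negative than a positive called interaction; the windows were read from a RefSeq table of build GRCm38.p6 and run from 250 bases before to 30 after the annotated start. The motifs and the genes displayed were chosen after the values were seen. In Saa2 (chr7:46751583-46751862, plus strand) capitals mark a match to TTGC, any 2 bases and AA, a form of the site read by C/EBP factors of the acute phase response. Searched on both strands over the full 300 bases, that motif was found in 12 of 20 acute phase genes with a promoter in the table and in 12.2% of 27025 genes.
Saa2: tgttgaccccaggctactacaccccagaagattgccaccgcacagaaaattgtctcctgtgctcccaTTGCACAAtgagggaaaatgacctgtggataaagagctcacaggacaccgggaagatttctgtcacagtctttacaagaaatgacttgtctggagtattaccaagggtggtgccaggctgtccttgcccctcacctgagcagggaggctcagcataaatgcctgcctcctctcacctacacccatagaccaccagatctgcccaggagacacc

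In Hspa5 (chr2:34771840-34772119, plus strand), the gene of the endoplasmic reticulum chaperone BiP, capitals mark the endoplasmic reticulum stress element, CCAAT, any 9 bases and CCACG. It was found in 6 of 20 genes of the endoplasmic reticulum stress list and in 0.137% of the 27025.
Hspa5: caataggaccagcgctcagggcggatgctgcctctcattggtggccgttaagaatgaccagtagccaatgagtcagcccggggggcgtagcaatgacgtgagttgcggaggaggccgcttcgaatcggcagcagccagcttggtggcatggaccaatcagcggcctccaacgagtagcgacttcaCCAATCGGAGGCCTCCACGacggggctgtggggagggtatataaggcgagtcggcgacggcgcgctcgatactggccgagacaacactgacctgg

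In Chordc1 (chr9:18292017-18292296, plus strand), which encodes a co-chaperone of HSP90, capitals mark overlapping matches to the heat shock element, GAA, any 2 bases, TTC, any 2 bases and GAA. It was found in 4 of 14 heat shock chaperone genes and in 0.662% of the 27025.
Chordc1: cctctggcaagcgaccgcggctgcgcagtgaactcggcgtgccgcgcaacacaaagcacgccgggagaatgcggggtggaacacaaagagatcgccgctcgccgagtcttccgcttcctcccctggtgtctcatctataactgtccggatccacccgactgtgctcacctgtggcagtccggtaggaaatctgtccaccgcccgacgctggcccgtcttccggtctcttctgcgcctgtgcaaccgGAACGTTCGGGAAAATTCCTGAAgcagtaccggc

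In Sgk1 (chr10:21993640-21993919, plus strand), a kinase gene that glucocorticoids induce, capitals mark 2 overlapping matches, on opposite strands, to the receptor's palindromic element, AGAACA, any 3 bases and TGTTC. It was found in 1 of 14 genes of the glucocorticoid list, Sgk1 itself, and in 0.0518% of the 27025. A match describes the letters of these windows and is neither a site nor a cause.
Sgk1: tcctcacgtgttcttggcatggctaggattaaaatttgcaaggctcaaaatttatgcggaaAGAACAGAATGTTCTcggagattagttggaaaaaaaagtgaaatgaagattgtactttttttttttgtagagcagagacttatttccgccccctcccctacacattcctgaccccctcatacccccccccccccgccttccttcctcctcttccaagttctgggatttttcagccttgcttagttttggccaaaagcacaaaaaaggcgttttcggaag

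Neutrophil markers had the lowest median interaction of the 12 cell type lists. Of 12 members, 8 passed, each with a negative value, and the list median was -4.02; 5 to 8 passed when 1 library was left out. S100a9, a subunit of calprotectin, had 33.8 and 34.8 CPM in CKO on NOX_6_18, 36.7 and 34.5 CPM in CKO on vehicle, 32.6 and 32.2 CPM in fl/fl on NOX_6_18, and 1.39 and 0.97 CPM in fl/fl on vehicle. Both fl/fl vehicle libraries were far below all others. Its interaction was -4.82 ± 0.19 (SE, edgeR adjusted p = 1.25e-05). Its partner S100a8 reached -4.27 ± 0.24 (adjusted p = 9.91e-05), and Ngp, the gene of neutrophilic granule protein, -6.55 ± 0.29 (adjusted p = 2.32e-05). The median difference between NOX_6_18 and vehicle over the 12 genes was -0.05 in CKO and 3.81 in fl/fl.

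Hepatocyte genes were called in part. Of 20 hepatocyte markers 12 had a negative interaction and none a called positive one, with a median of -0.61. Apoa1, the main apolipoprotein of high-density lipoprotein, had 366 and 385 CPM in CKO on NOX_6_18, 402 and 381 CPM in CKO on vehicle, 392 and 372 CPM in fl/fl on NOX_6_18, and 169 and 168 CPM in fl/fl on vehicle, for an interaction of -1.24 ± 0.07 (SE, edgeR adjusted p = 9.98e-05). The most abundant hepatocyte transcript did not follow: Alb, the albumin gene, averaged 1752 CPM in CKO on NOX_6_18, 1775 CPM in CKO on vehicle, 1764 CPM in fl/fl on NOX_6_18 and 1978 CPM in fl/fl on vehicle. Its interaction of 0.15 was not called (edgeR adjusted p = 0.161).

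The gene with the smallest adjusted p was Serpina1e, an alpha-1-antitrypsin gene of mouse hepatocytes. It had 388 and 412 CPM in CKO on NOX_6_18, 407 and 411 CPM in CKO on vehicle, 393 and 399 CPM in fl/fl on NOX_6_18, and 47.1 and 48.2 CPM in fl/fl on vehicle. The interaction was -3.09 ± 0.06 (SE, edgeR adjusted p = 3.81e-07). Selenbp2, which encodes a selenium-binding protein, had 68.9 to 75.5 CPM in the other 6 libraries and 6.69 and 6.51 CPM in fl/fl on vehicle (-3.54 ± 0.09, adjusted p = 6.85e-07). Serpina1e belongs to a cluster of near-identical genes, so its share of the reads is uncertain.

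Among 19 genes of the major urinary proteins and other growth hormone-dependent liver genes, 9 had a negative interaction and the median was -1.23. Mup1 had no counts in either fl/fl vehicle library and 9.86 to 16.6 CPM in the other 6. Against a floor of 3 counts over that group, the lowest mean of another group, 11.4 CPM, was at least 395-fold higher, which covers counting error only. Mup12 varied within groups, with 26.4 and 126 CPM in CKO on NOX_6_18, 142 and 220 CPM in CKO on vehicle, 158 and 223 CPM in fl/fl on NOX_6_18, and 5.71 and 1.39 CPM in fl/fl on vehicle. The urinary protein genes are near-identical copies, so values of single members are uncertain, and the calls of Mup1 and Mup12 were lost with limma-voom. Hsd3b5, a steroid dehydrogenase gene of male mouse liver, had 5.04 to 6.60 CPM in the other 6 libraries and 1.09 and 0.97 CPM in fl/fl on vehicle (-2.50 ± 0.23, edgeR adjusted p = 0.00101).

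**Figure D3:**
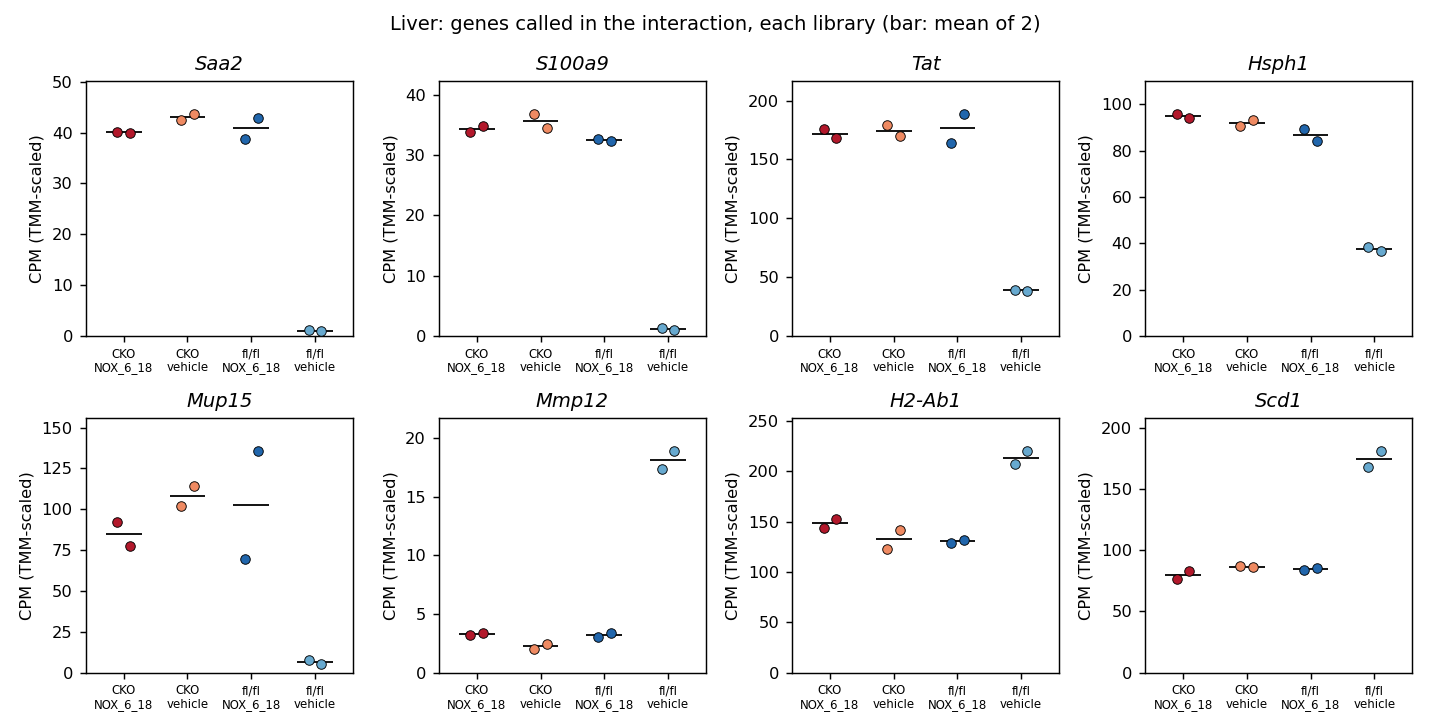
Level of 8 genes called in the interaction in each liver library (y axis, TMM-scaled CPM from 0; bar, mean of 2 libraries) by group (x axis). Saa2, S100a9, Tat, Hsph1 and Mup15 are lowest and Mmp12, H2-Ab1 and Scd1 highest in fl/fl vehicle, and the other 3 groups overlap or nearly so.

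Genes that glucocorticoids induce, together with the metallothioneins, gave 10 negative interactions among 16 members and none positive, with a median of -0.97. When 1 library was left out, 10 or 11 passed. Tat encodes tyrosine aminotransferase, a classical glucocorticoid-induced liver enzyme. It had 176 and 168 CPM in CKO on NOX_6_18, 179 and 170 CPM in CKO on vehicle, 164 and 188 CPM in fl/fl on NOX_6_18, and 39.2 and 38.3 CPM in fl/fl on vehicle. The interaction was -2.21 ± 0.10 (SE, edgeR adjusted p = 3.10e-05), with -0.02 ± 0.07 in CKO and 2.19 ± 0.07 in fl/fl. Ddit4, an inhibitor of mTORC1 signalling, reached -1.71 ± 0.14, Fkbp5, a co-chaperone that restrains the glucocorticoid receptor, -1.31 ± 0.09, and the clock gene Per1 -1.25 ± 0.09, with edgeR adjusted p from 0.000271 to 0.000521. Sgk1, whose promoter is shown above, averaged 312 CPM in CKO on NOX_6_18, 306 CPM in CKO on vehicle, 314 CPM in fl/fl on NOX_6_18 and 212 CPM in fl/fl on vehicle (-0.54 ± 0.06, adjusted p = 0.00157).

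Gluconeogenesis and amino acid catabolism genes overlapped with that list in Tat. Of 17 members, 5 had a negative interaction, with a median of -0.43. Pck1, the cytosolic PEP carboxykinase of gluconeogenesis, had 193 to 200 CPM in the other 6 libraries and 57.6 and 55.8 CPM in fl/fl on vehicle. Its interaction was -1.82 ± 0.07 (SE, edgeR adjusted p = 8.46e-06). G6pc, the enzyme that releases glucose, was not called (0.51).

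Of 18 heat shock chaperone genes, 12 had a negative and 2 a positive interaction, with a median of -0.64. When 1 library was left out, 5 to 9 were called negative, and both positive calls were kept. Hsph1, the HSP110 nucleotide exchange factor, had 95.8 and 94.0 CPM in CKO on NOX_6_18, 90.8 and 93.1 CPM in CKO on vehicle, 89.6 and 84.1 CPM in fl/fl on NOX_6_18, and 38.3 and 36.5 CPM in fl/fl on vehicle (-1.17 ± 0.09, edgeR adjusted p = 0.00031). The 2 positive members were the inducible HSP70 genes. Hspa1b had 150 and 145 CPM in CKO on NOX_6_18, 150 and 137 CPM in CKO on vehicle, 157 and 151 CPM in fl/fl on NOX_6_18, and 289 and 276 CPM in fl/fl on vehicle (0.92 ± 0.08, adjusted p = 0.000951). Hspa1a followed at 0.83 ± 0.08 (adjusted p = 0.00116); the pair is nearly identical in sequence and Hspa1a shares exon positions with another annotated gene, so their separate values are uncertain.

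Of 22 endoplasmic reticulum stress genes, 4 had a negative interaction (median -0.34). Hspa5 had 244 to 266 CPM in the other 6 libraries and 161 and 159 CPM in fl/fl on vehicle (-0.69 ± 0.07, edgeR adjusted p = 0.00165). Calr, the calcium-binding chaperone calreticulin, was lower by less (-0.38 ± 0.06, adjusted p = 0.0195) and missed the threshold in 6 of 8 fits that left out 1 library (adjusted p up to 0.0671). Complement and coagulation genes gave 11 negative and no positive calls among 32 members (median -0.41), and 6 to 8 when 1 library was left out. Among the 11, Fga, Fgb and Fgg also stand in the acute phase list and are counted there too. C9, the pore-forming complement component, had an interaction of -1.40 ± 0.14 (edgeR adjusted p = 0.00123), a call lost with all 16 libraries in 1 fit.

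**Figure D4:**
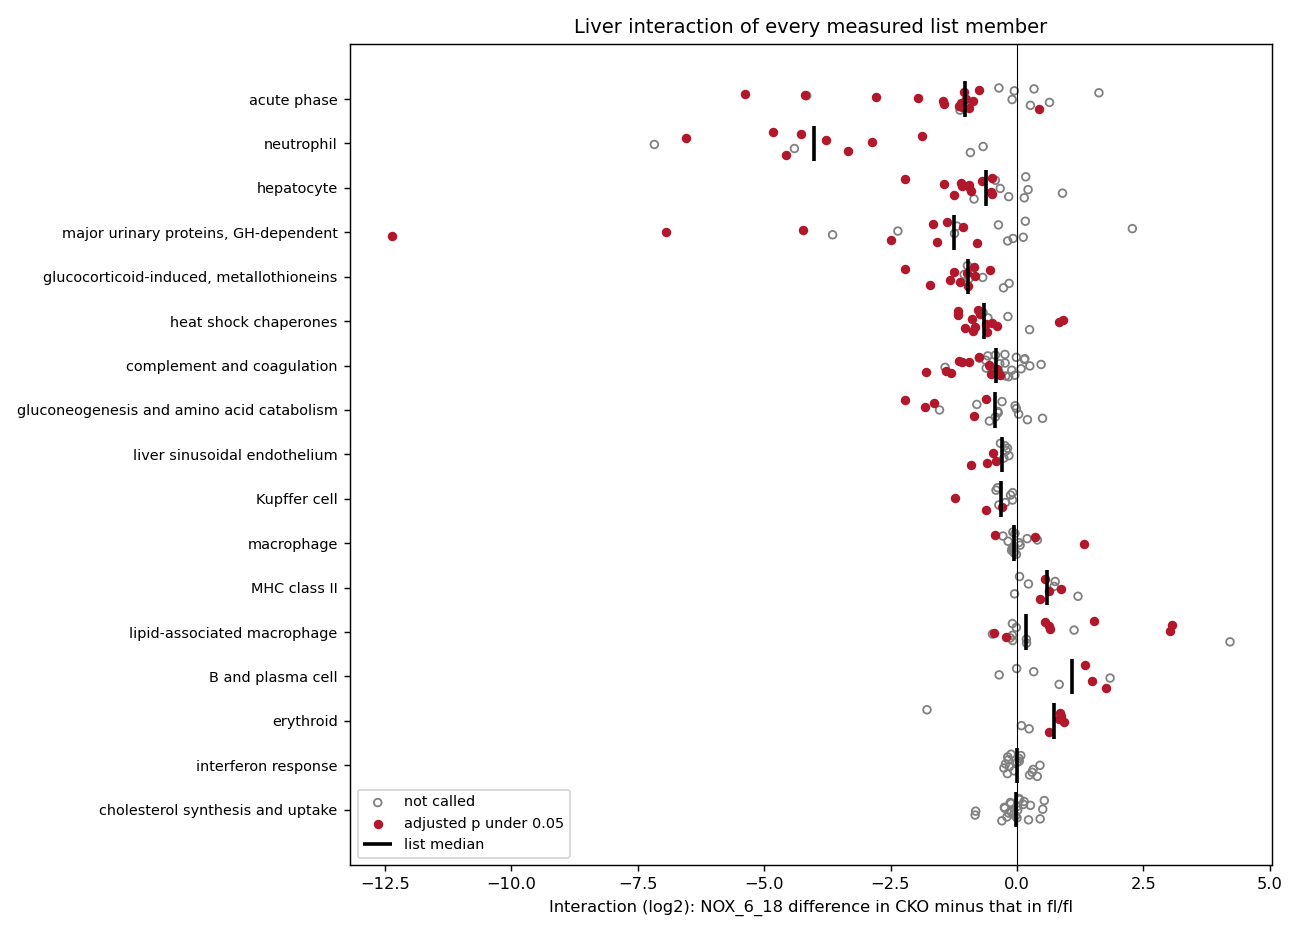
Interaction of every measured member of 17 gene lists (x axis, log2), 1 point per gene, filled where the edgeR adjusted p was under 0.05; the vertical bar is the list median. Neutrophil genes have the lowest median (-4.02), MHC class II genes lie right of 0 (0.60), and no interferon or cholesterol gene is filled.

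Of 18 macrophage markers, 2 had a positive and 1 a negative interaction, with a median of -0.05, and leaving out 1 library gave 0 to 2 positive and 0 to 1 negative calls. Adgre1, which encodes the macrophage marker F4/80, averaged 118 CPM in CKO on NOX_6_18, 119 CPM in CKO on vehicle and 119 CPM in both fl/fl groups. Its interaction was -0.01 ± 0.08. Lyz2, the lysozyme gene whose promoter drives Cre, had 267 and 271 CPM in CKO on NOX_6_18, 287 and 288 CPM in CKO on vehicle, 283 and 280 CPM in fl/fl on NOX_6_18, and 384 and 384 CPM in fl/fl on vehicle (0.36 ± 0.05, edgeR adjusted p = 0.0122). The Lyz2 call was lost without CKO NOX_6_18 replicate 2 (adjusted p = 0.0536).

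Of 10 Kupffer cell markers, 3 had a negative interaction and none a positive one, with a median of -0.32. Marco, a scavenger receptor of Kupffer cells, had 76.0 and 75.2 CPM in CKO on NOX_6_18, 74.6 and 73.0 CPM in CKO on vehicle, 71.6 and 74.9 CPM in fl/fl on NOX_6_18, and 31.2 and 30.0 CPM in fl/fl on vehicle (-1.22 ± 0.08, edgeR adjusted p = 0.000235). Cd163, the haemoglobin scavenger receptor, and Cd5l were called at smaller sizes (-0.60 and -0.29). Leaving out 1 library gave 1 to 3 calls in this list, since Cd163 and Cd5l missed the threshold in several of those fits (adjusted p up to 0.0853 and 0.0628) while Marco did not.

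Lipid-associated macrophage genes, which mark the foamy macrophages of fatty liver and adipose tissue, gave 6 positive and 2 negative interactions among 18 members (median 0.19), with 3 to 6 positive and 0 to 1 negative when 1 library was left out. Mmp12, macrophage elastase, had 3.20 and 3.41 CPM in CKO on NOX_6_18, 2.02 and 2.45 CPM in CKO on vehicle, 3.01 and 3.40 CPM in fl/fl on NOX_6_18, and 17.4 and 18.9 CPM in fl/fl on vehicle. Its interaction was 3.06 ± 0.23 (SE, edgeR adjusted p = 0.000316); it shares exon positions with Mmp1b, and the strand setting of the counting is not known. Gpnmb, a lysosomal glycoprotein gene, had 1.22 to 2.83 CPM in the other 6 libraries and 17.8 and 17.9 CPM in fl/fl on vehicle (3.03 ± 0.52, adjusted p = 0.0201), a call lost in 5 of 8 fits without 1 library (adjusted p up to 0.0764). Trem2, the lipid-sensing receptor of these cells, had an interaction of 1.52 ± 0.24 (adjusted p = 0.0155), lost in 4 of 8 such fits (up to 0.0634). Lpl and Spp1 were positive at 0.63 ± 0.09 and 0.56 ± 0.07, and neither was lost in those fits. Spp1 also stands in the cholangiocyte list (median 0.63), and which cells gave its reads was not tested.

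Of 10 MHC class II genes, 4 had a positive interaction and none a negative one, with a median of 0.60. H2-Ab1, a class II beta chain, had 144 and 153 CPM in CKO on NOX_6_18, 123 and 142 CPM in CKO on vehicle, 129 and 132 CPM in fl/fl on NOX_6_18, and 207 and 220 CPM in fl/fl on vehicle (0.88 ± 0.11, edgeR adjusted p = 0.00364). H2-Aa (0.63), H2-Eb1 (0.56) and the invariant chain Cd74 (0.46) were the other 3. The Cd74 call was lost with all 16 libraries in 1 fit, and that of H2-Eb1 in 4 of 8 fits that left out 1 library (adjusted p up to 0.0571). B cell markers, which share class II expression, gave 3 positive calls of 8 (Cd79b and Pax5 among them), but at most 1 of them passed when any 1 library was left out. The summed B and plasma cell markers were 46.6 to 48.6 CPM in CKO on NOX_6_18, 41.7 to 45.0 CPM in CKO on vehicle, 35.7 to 42.4 CPM in fl/fl on NOX_6_18 and 55.3 to 60.6 CPM in fl/fl on vehicle; their part in the class II result was not tested.

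Erythroid genes were positive in 5 of 8 measured members, the 4 adult globin genes and Alas2, the first enzyme of erythroid haem synthesis. Hba-a1 had 1414 and 1435 CPM in CKO on NOX_6_18, 1452 and 1391 CPM in CKO on vehicle, 1393 and 1329 CPM in fl/fl on NOX_6_18, and 2505 and 2663 CPM in fl/fl on vehicle (0.93 ± 0.06, edgeR adjusted p = 0.000139). The alpha globin pair and the beta globin pair are each near-identical, so the split within a pair is uncertain. Among 21 genes of fatty acid and triglyceride synthesis, Scd1 (0.94 ± 0.09) and Fasn (0.79 ± 0.10) were positive, Thrsp was negative in a call lost in 7 of 8 fits that left out 1 library, and the median was 0.11. Scd1, the stearoyl-CoA desaturase, had 76.8 to 87.1 CPM in the other 6 libraries and 168 and 181 CPM in fl/fl on vehicle (adjusted p = 0.00111).

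Of 10 sinusoidal endothelial markers, 4 had a negative interaction, with a median of -0.29, and 4 or 5 passed when 1 library was left out. Bmp2, the endothelial signal that induces hepcidin in hepatocytes, had 548 and 554 CPM in CKO on NOX_6_18, 584 and 529 CPM in CKO on vehicle, 548 and 555 CPM in fl/fl on NOX_6_18, and 294 and 302 CPM in fl/fl on vehicle. Its interaction was -0.90 ± 0.07 (SE, edgeR adjusted p = 0.00045). The lectin gene Clec4g, with 1157 to 1187 CPM in the other 6 libraries and 773 and 789 CPM in fl/fl on vehicle, reached -0.59 ± 0.04 (adjusted p = 0.000289); it shares exon positions with a predicted gene, and the call was lost with all 16 libraries in 1 fit.

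Oxidized fatty acids are ligands of GPR132, and enzymes that make or remove such lipids gave 3 negative calls and no positive one among 19 genes (median -0.05), with 1 or 2 when 1 library was left out. Hpgd, which inactivates prostaglandins, had 272 and 290 CPM in CKO on NOX_6_18, 281 and 291 CPM in CKO on vehicle, 275 and 295 CPM in fl/fl on NOX_6_18, and 164 and 172 CPM in fl/fl on vehicle (-0.79 ± 0.08, edgeR adjusted p = 0.00126). Ephx2, the soluble epoxide hydrolase, followed at -0.70 ± 0.11 (adjusted p = 0.0142), lost in 4 of 8 fits without 1 library (up to 0.06). The third was Ptgs2.

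Several lists gave no call. With 2.45% of all genes fitted called, lists of this size hold few calls or none at that share, so the counts say nothing particular of them. None of 17 interferon response genes, 24 cholesterol synthesis and uptake genes, 36 nuclear oxidative phosphorylation genes, 12 T and NK cell markers or 11 lipid droplet genes passed edgeR's test in the interaction, and the first 3 lists had medians of -0.00, -0.01 and -0.17. Of 16 inflammatory cytokines and related genes, Il1a (-0.79), Il1b (-0.75) and Ptgs2 (-1.34) were negative, although the list median was positive at 0.48. Il1a and Il1b encode the interleukin-1 cytokines and Ptgs2 the inducible cyclooxygenase; Il1a and Il1b each share exon positions with another annotated gene, and the calls of Il1b (without CKO NOX_6_18 replicate 2, adjusted p = 0.0531) and Ptgs2 (7 of 8 fits) were lost when single libraries were left out.

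A small set of genes did not follow the pattern of fl/fl vehicle alone. The 7 genes that passed for NOX_6_18 against vehicle in CKO comprised 5 that rose (0.0256%), among them Krcc1, Sema6a, Zscan26 and Selenoi, and 2 that fell (0.0102%), Igfbp4 and Trim25. All but Selenoi also passed in the interaction. Zscan26, Trim25 and Selenoi, and Rnf13 below, were chosen after their values were seen. With all 16 libraries in 1 fit the CKO contrast called 2 genes, of which 1 was among these 7, and leaving out 1 liver library gave 8 to 28, with the most without CKO vehicle replicate 2.

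Krcc1, a lysine-rich coiled-coil protein gene (chr6:71271677-71285319, GRCm38, plus strand), had 22.6 and 23.4 CPM in CKO on NOX_6_18, 7.64 and 8.76 CPM in CKO on vehicle, 8.71 and 8.14 CPM in fl/fl on NOX_6_18, and 23.9 and 22.6 CPM in fl/fl on vehicle. It was high in CKO on NOX_6_18 and in fl/fl on vehicle and low in the other 2 groups, with no overlap between the pairs. The difference was 1.49 ± 0.11 in CKO (SE, edgeR adjusted p = 0.00458) and -1.46 ± 0.11 in fl/fl (adjusted p = 0.000164), which gave an interaction of 2.95 ± 0.16 (adjusted p = 7.62e-05). Krcc1 shares exon positions with a microRNA gene. Across all called genes, 84 had both of these groups outside the other 2, against 4.09% of the genes fitted. That arrangement has the signs of the contrast itself, so calls favour it by construction and the count is no separate result.

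Sema6a, a transmembrane semaphorin gene, had 162 and 162 CPM in CKO on NOX_6_18, 92.7 and 93.0 CPM in CKO on vehicle, 91.9 and 87.4 CPM in fl/fl on NOX_6_18, and 131 and 125 CPM in fl/fl on vehicle. CKO on NOX_6_18 was the highest group, fl/fl on vehicle came next, and the interaction was 1.31 ± 0.08 (SE, edgeR adjusted p = 9.98e-05).

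Of 13 genes of the insulin-like growth factor system, 3 had a negative interaction and none a positive one (median -0.18), with 1 to 3 when 1 library was left out. Igfbp4, which encodes a binding protein of these growth factors, set CKO on NOX_6_18 apart. It had 289 and 287 CPM in CKO on NOX_6_18, 496 and 450 CPM in CKO on vehicle, 480 and 471 CPM in fl/fl on NOX_6_18, and 444 and 448 CPM in fl/fl on vehicle. The difference was -0.72 ± 0.05 in CKO (SE, edgeR adjusted p = 0.00407) and 0.09 ± 0.05 in fl/fl (adjusted p = 0.40), and the interaction was -0.81 ± 0.07 (adjusted p = 0.000777). Igfbp4 was also lower in CKO than in fl/fl on NOX_6_18 (-0.72 ± 0.05, adjusted p = 0.00251), a comparison that does not use the fl/fl vehicle libraries.

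In Trim25 and Zscan26 the CKO vehicle libraries lay farthest from the others. In Trim25 the fl/fl vehicle libraries were also the lowest of all, by a smaller margin. Trim25, a ubiquitin ligase gene of RIG-I signalling (chr11:88999376-89020293, plus strand), had 53.1 and 53.6 CPM in CKO on NOX_6_18, 108 and 113 CPM in CKO on vehicle, 51.2 and 48.6 CPM in fl/fl on NOX_6_18, and 46.0 and 38.0 CPM in fl/fl on vehicle (-1.30 ± 0.13, edgeR adjusted p = 0.00126). Zscan26, a zinc finger gene, had 80.5 and 76.2 CPM in CKO on NOX_6_18, 37.7 and 31.7 CPM in CKO on vehicle, 82.1 and 76.8 CPM in fl/fl on NOX_6_18, and 73.3 and 68.7 CPM in fl/fl on vehicle (1.01 ± 0.13, adjusted p = 0.00492). Selenoi, an ethanolamine phosphotransferase gene, rose on NOX_6_18 in both genotypes (1.83 ± 0.17 in CKO and 1.47 ± 0.17 in fl/fl), and its interaction of 0.36 ± 0.24 was not called (adjusted p = 0.577).

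In Vsir and Rnf13 the fl/fl NOX_6_18 libraries were apart. Vsir, the gene of the immune checkpoint VISTA (chr10:60346851-60372684, plus strand), had 112 and 98.3 CPM in CKO on NOX_6_18, 119 and 110 CPM in CKO on vehicle, 32.6 and 39.1 CPM in fl/fl on NOX_6_18, and 108 and 117 CPM in fl/fl on vehicle (1.54 ± 0.15, edgeR adjusted p = 0.00111). Rnf13, a ubiquitin ligase gene, had 30.4 and 29.3 CPM in CKO on NOX_6_18, 25.2 and 27.5 CPM in CKO on vehicle, 56.6 and 61.0 CPM in fl/fl on NOX_6_18, and 27.8 and 30.9 CPM in fl/fl on vehicle (-0.83 ± 0.12, adjusted p = 0.0108); it shares exon positions with a predicted gene. The calls of Krcc1, Sema6a, Igfbp4, Trim25, Zscan26, Vsir and Rnf13 in the interaction held in each fit that left out 1 library. With all 16 libraries in 1 fit, Igfbp4, Zscan26 and Vsir missed the threshold.

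**Figure D5:**
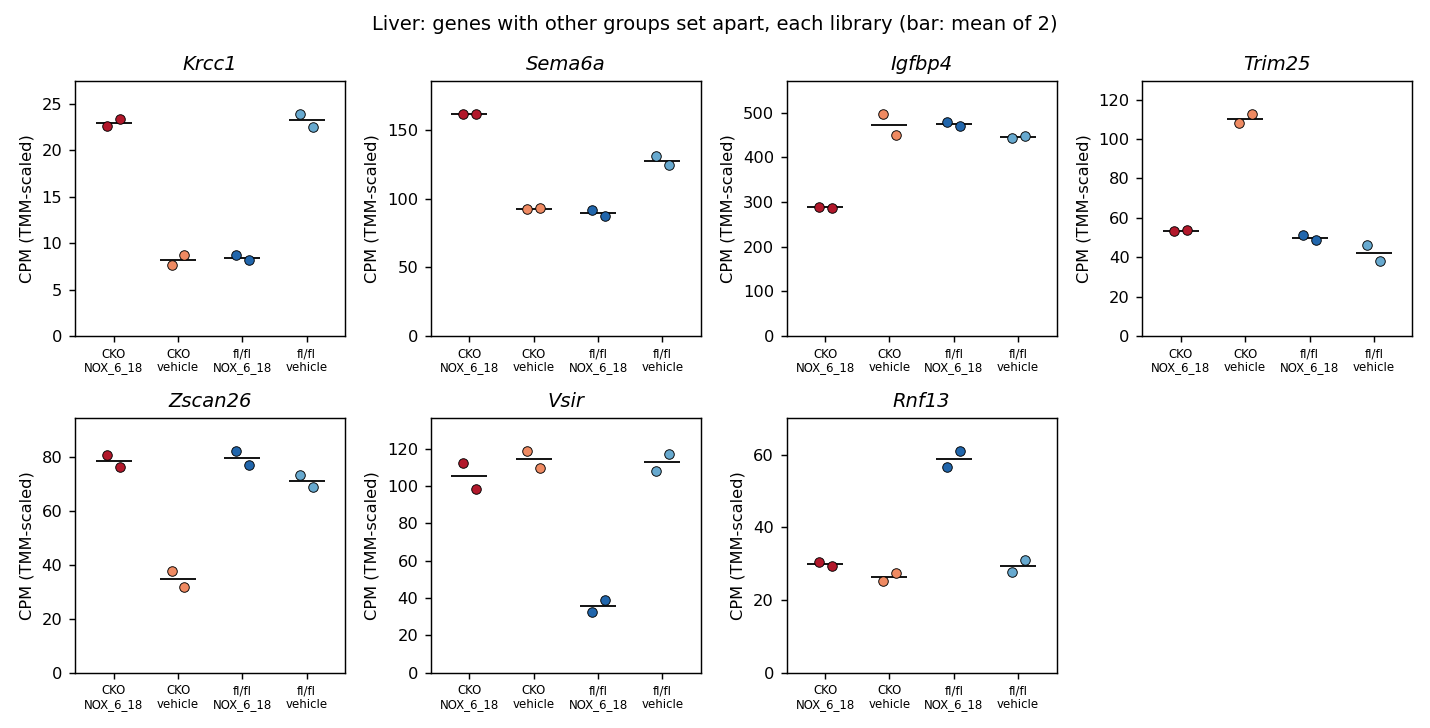
Level of 7 genes in each liver library (y axis, TMM-scaled CPM from 0; bar, mean of 2 libraries) by group (x axis). Krcc1 and Sema6a are high in CKO on NOX_6_18 and in fl/fl on vehicle, Igfbp4 is low in CKO on NOX_6_18, Trim25 is high and Zscan26 low in CKO on vehicle, and Vsir is low and Rnf13 high in fl/fl on NOX_6_18.

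Whether the interaction differed between liver and WAT was tested in a fit of all 16 libraries, with the liver interaction minus the WAT interaction. Of 26751 genes, 1788 passed (6.68%), 972 of them higher (3.63%) and 816 lower (3.05%) in liver than in WAT. The higher share was 54.4%, and it was 74.5% when only library totals were used for scaling. The median over all genes was 0.13, and 0.29 with library totals, so values near that size carry the scaling. In WAT itself the interaction passed for 5133 genes (19.2%).

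Of the 16 glucocorticoid-induced genes and metallothioneins, 10 were lower in liver than in WAT and none higher, with a median WAT interaction of -0.06. Ddit4 had an interaction of -1.71 in liver and 0.14 in WAT, and the difference was -1.86 ± 0.17 (SE, edgeR adjusted p = 5.85e-05). Fkbp5 was not among the 10, with -1.31 in liver, -1.58 in WAT and a difference of 0.25 ± 0.14 (adjusted p = 0.366). Serpina1e had -3.09 in liver and 0.78 in WAT (difference -3.88 ± 0.31, adjusted p = 2.94e-05). Saa2, by contrast, had -5.39 in liver and -5.67 in WAT, a difference of 0.27 ± 0.80 that was not called (adjusted p = 1).

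Of 18 lipid-associated macrophage genes, 10 were lower and 1 was higher in liver, and the median WAT interaction was 1.10. Lpl, lipoprotein lipase, had 0.63 in liver and 1.37 in WAT (difference -0.75 ± 0.13, edgeR adjusted p = 0.00451), whereas Mmp12 was the member higher in liver, with 3.06 in liver and 1.26 in WAT (difference 1.8 ± 0.22, adjusted p = 0.000621). Erythroid genes were higher in liver in 5 of 8 members. Hba-a1 had 0.93 in liver and -1.26 in WAT, a difference of 2.18 ± 0.14 (adjusted p = 6.89e-06). Krcc1 had a difference of 4.70 ± 0.92 (adjusted p = 0.0095) and Trim25 one of -1.84 ± 0.18 (adjusted p = 0.000136). In both tissues the contrast includes a group of fl/fl vehicle libraries, and no library is shared between the tissues.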

How the data were processed

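Group membership followed the sample titles. For every library the authors deposited a table of raw counts per Ensembl gene, whole numbers whose totals differ between libraries. Per the labels, TRIzol was used for total RNA and a stranded KAPA kit for the libraries. The tools and build listed per the submitters' processing notes, with no role given, are HISAT, featureCounts 1.5.0, DESeq 1.8.3 and GRCm38. No source used here names the annotation release, the strand setting or any filter. Of 55421 Ensembl identifiers, 55154 (99.5%) matched a symbol in GENCODE M21.

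The 8 liver libraries were fitted with edgeR 4.0.16 (R 4.3.3; quasi-likelihood test, TMM scaling, filterByExpr by group, 1 coefficient per group), with Benjamini-Hochberg adjusted p under 0.05 over 19515 genes. The comparison with WAT used all 16 libraries and 26751 genes. Log2 fold changes are edgeR's and their standard errors were back-computed as the absolute value over the square root of F. CPM are counts over TMM-scaled library totals, and principal components used log2 CPM with a prior count of 2. A library's floor of 3 counts was 0.0484 to 0.0662 CPM. The fit was also run on simulated counts with known interactions. Those counts were drawn from the fl/fl vehicle means with a preset spread. They do not test how the fit handles a group that stands apart in many genes. Libraries did not hold identical values (0 identical pairs). Replicate numbers did not pair the libraries: the correlation of replicate differences between groups ran from -0.10 to 0.08 over 10307 genes.

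The contrast, the 45 gene lists and the named genes were chosen with earlier results of these data known; the lists have no set test and are described by counts and medians. Genes named were Gpr132; among called genes of at least 5 CPM in the highest group, the 10 with the largest interaction each way and the 5 each way with the smallest adjusted p, leaving out predicted, immunoglobulin and Y-linked genes; and up to 4 called members per list, or 2 where none was called. Other list members are given as values only, and the text marks genes picked outside the rule once their values were known. A few genes are not reported here. Of the called genes, 24.7% share exon positions with another annotated gene, against 35.1% of genes fitted; their reads may be divided by the counting. Alternatives were RLE or total scaling, mitochondrial genes left out, other filters, DESeq2 1.42.0, limma-voom 3.58.1, a replicate block, all 16 libraries in 1 fit, a minimum fold, a GC and length trend added after seeing the data, and each library left out.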

Additional observations from a re-analysis of the deposited data

Results flagged for a closer look

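The differences between NOX_6_18 and vehicle in CKO and in fl/fl differed from each other, by the test of the interaction itself, in 478 genes. The interaction differed between liver and WAT in 1788 genes. Among genes that also passed for NOX_6_18 in CKO, the difference between the genotypes was 2.95 for Krcc1, 1.31 for Sema6a, 1.01 for Zscan26, -0.81 for Igfbp4 and -1.30 for Trim25 on the log2 scale. Each of these is an edgeR test of the difference in libraries of which 2 make up a group.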

How the results depend on the processing

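Main counts of calls were 478 for the interaction, 7 for NOX_6_18 in CKO, 1077 for NOX_6_18 in fl/fl and 1788 for liver against WAT. DESeq2 gave 829, 35 and, for liver against WAT, 3313; limma-voom gave 3369 for the last. A minimum absolute log2 of 1 left 208 in the interaction, 4 in CKO and 327 in fl/fl. In CKO, no filter gave 15 and all 16 libraries in 1 fit gave 2. Leaving out 1 library gave 288 to 344 for the interaction, 8 to 28 in CKO, and 615 to 931 in fl/fl, where 615 to 623 came without 1 of its own 4 libraries; the cause was not tested. The group left with 1 library is assumed to vary like the others. With the replicate number as a block the counts were 390 (377 of them among the 478), 8, 894 and 1570; the numbers do not pair the libraries. Over the 19 settings, 34 of 128 called genes named stayed called in each and 94 were lost in at least 1; over the fits that left out 1 library, 83 stayed called and 45 were lost. By rule, 1 of the 19 settings, the minimum absolute log2 of 1, dropped every smaller value without a new fit. Some of the 94, Bmp2 and Scd1 among them, were lost in that setting only. All 128 kept their sign, while 4 of the named genes without a call (Cfd, Nkg7, Srebf2 and Stard4) did not. List medians near 0 changed sign for 3 lists whose medians are given above. Interferon response ran from -0.06 to 0.13, cholesterol from -0.08 to 0.02 and eicosanoid enzymes from -0.18 to 0.0037. The median of the mitochondrially encoded list (0.04) changed sign as well. Depth as a limit was not tested; with 2 libraries per group, their number limits the precision.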

Other observations

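Genes that low oxygen induces gave 4 negative interactions and no positive one among 15 measured (median -0.36), and 2 to 4 when 1 library was left out. P4ha1, a collagen prolyl hydroxylase subunit, had 97.7 and 95.0 CPM in CKO on NOX_6_18, 93.2 and 91.7 CPM in CKO on vehicle, 90.0 and 89.3 CPM in fl/fl on NOX_6_18, and 52.0 and 52.2 CPM in fl/fl on vehicle (-0.72 ± 0.07, edgeR adjusted p = 0.00164). Among 19 immediate early genes, Jun (0.82 ± 0.10, adjusted p = 0.00359) and Fos (0.50 ± 0.09, adjusted p = 0.0277) had a positive interaction and Klf2 (-0.72) and Klf4 (-0.64) a negative one. The calls of Fos, Klf2 and Klf4 were each lost without certain single libraries (adjusted p up to 0.107, 0.0552 and 0.0667), and Jun shares exon positions with an antisense gene.

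Of 15 mitochondrially encoded genes in the list used here, 4 passed. Outside that list, 4 mitochondrial tRNA genes were also called. The ribosomal RNAs mt-Rnr2 (-1.0 ± 0.08, edgeR adjusted p = 0.000398) and mt-Rnr1 (-0.79 ± 0.07, adjusted p = 0.000578) had a negative interaction and the cytochrome oxidase subunit messages mt-Co3 (0.33 ± 0.04) and mt-Co1 (0.20 ± 0.03) a positive one. The last 2 were lost with all 16 libraries in 1 fit. mt-Rnr2 had 3176 and 3278 CPM in CKO on NOX_6_18, 3084 and 3484 CPM in CKO on vehicle, 3148 and 3256 CPM in fl/fl on NOX_6_18, and 1587 and 1670 CPM in fl/fl on vehicle. Of 31 cytochrome P450 genes of families 1 to 3, Cyp3a11 (1.87 ± 0.30) and Cyp3a25 (1.25 ± 0.24) were positive and none was negative; both calls were lost in several fits that left out 1 library (adjusted p up to 0.064 and 0.128).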
